A study of Mus musculus with 18 samples.

Results

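The Kruppel-like factors described here are 10 genes of the zinc finger transcription factor family, namely Klf2, Klf3, Klf4, Klf6, Klf7, Klf9, Klf10, Klf11, Klf13 and Klf16, taken by gene name from the 22708 genes of a deposited expression table. RNA sequencing was performed on eosinophils sorted from the mouse small intestine as CD11b+ MHC-II- SiglecF+ SSChi cells. The labels gave 3 genotypes on the C57/BL6 strain, WT, Ahr-KO and Ahrr-KO, the latter named for the genes of the aryl hydrocarbon receptor (AHR) and of the AHR repressor (AHRR). Each genotype had 3 female (F1 to F3) and 3 male (M1 to M3) samples, which makes 18 libraries in all. RNA was taken right after sorting, the labels gave no age, and the methods state only one age range for the mice of all experiments. The paper counts each WT and Ahr-KO replicate of its sequencing as a mouse, whereas no source used here says so for Ahrr-KO, where p-values measure the spread between these libraries. According to the study's methods the Ahr-KO and WT mice were neither littermates nor cohoused, so genotype and housing cannot be told apart in that comparison, and the methods do not describe the Ahrr-KO mice. Total counts per library ranged from 3842977 to 8149200 in WT (median 6022409), from 6581818 to 10284124 in Ahr-KO (median 9647589) and from 8788867 to 12046933 in Ahrr-KO (median 10371556). Values are the variance-stabilized log2 values of the authors, on which a gene without counts stood at 5.02, so that differences of weakly expressed genes are compressed.

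Kruppel-like factors share a carboxy-terminal zinc finger domain that binds GC-rich and CACCC-containing DNA, while their divergent amino-terminal parts recruit activators or corepressors. In blood cells they control quiescence, trafficking and lineage choice, with Klf2 and Klf4 best known in lymphocytes, monocytes and endothelium. AHR is a receptor that binds small molecules from diet and microbes and then activates transcription, and AHRR is both a target gene and a repressor of AHR.

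Ahr and Ahrr, the targeted genes, were examined first in each genotype. Ahr transcript had a lowest, median and highest value of 13.40, 13.76 and 14.40 in WT, of 14.15, 14.55 and 14.67 in the libraries labelled Ahr-KO, and of 13.03, 13.51 and 14.42 in those labelled Ahrr-KO. Ahrr transcript stood at 9.79, 10.12 and 10.39 in WT, at 5.02, 5.25 and 5.79 in the libraries labelled Ahr-KO, and at 9.95, 10.37 and 10.93 in those labelled Ahrr-KO. Neither transcript was thus lower in the libraries that carry its own knockout label than in WT. A total over the whole gene does not show a deleted exon, so these values check neither label, and the genotypes are used below as labelled. Of the AHR targets on the list, 4 fell in the libraries labelled Ahr-KO against WT, with differences of -4.83 for Ahrr, -4.07 for the monooxygenase gene Cyp1b1, -2.60 for the ADP-ribosyltransferase gene Tiparp and -1.82 for the reductase gene Nqo1 (limma, Benjamini-Hochberg adjusted p of 4.95e-12, 1.93e-08, 1.56e-07 and 1.27e-07). The target gene Cyp1a1 was too scarce to be tested, with counts of 0 in all WT libraries, 0 to 6 in Ahr-KO and 0 to 28 in Ahrr-KO. None of the 4 genes passed the test between the libraries labelled Ahrr-KO and WT. Of the 5 tested genes of the AHR pathway, 4 passed for Ahr-KO against WT (8.84% of all tested genes) and 0 for Ahrr-KO against WT (0.0779%). For sex 0 passed (3.06% of all tested genes), and for Ahr-KO against Ahrr-KO 5 passed (14.9%). In that last comparison Ahr itself was higher in the libraries labelled Ahr-KO by 0.82 (limma adjusted p = 0.0296), a call lost in 10 of 26 alternatives (adjusted p from 0.00682 to 0.216).

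The eosinophil label was compared with 10 marker genes of that lineage. The surface receptors Ccr3, Siglecf and Il5ra, the integrin gene Itgam and the lipoxygenase gene Alox15 were abundant in each library, the lowest raw count among them being 867 for Siglecf in WT. Of the transcripts of granule proteins, Epx, Ear1 and Ear2 were scarce, with counts of at most 22, 23 and 32. Ear6 had counts of 0 in all Ahrr-KO libraries and of at most 1 in the others. Prg2, which also encodes a granule protein, had a mean value of 7.03 ± 0.34 in WT, 9.33 ± 0.60 in Ahr-KO and 7.26 ± 0.49 in Ahrr-KO (SD, n = 6), and it was higher in Ahr-KO than in WT by 2.30 (limma adjusted p = 3.47e-07) and than in Ahrr-KO by 2.07 (adjusted p = 1.81e-05).

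Of the family, Klf6 was the most abundant transcript in WT eosinophils, measured as normalized counts per kilobase of exon, a scale on which genes of different length can be compared. Klf6, which is induced within minutes to hours by many stimuli, had a WT median of 1150 normalized counts per kb (913 to 1240). Klf7, a factor known from neuronal development, followed at a median of 368 (271 to 483), Klf2, the regulator of quiescence and migration, at 286 (169 to 410), and Klf3, a repressor that works through CtBP, at 244 (176 to 341). The WT ranges of these last 3 overlapped with their neighbours in the order, and Klf6 stood above all of them.

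A lower level was occupied by Klf13, Klf11 and Klf10, whose WT ranges also overlapped in turn. Klf13, known as an activator of the chemokine gene Ccl5 in T cells, had a median of 120 normalized counts per kb, against 101 for Klf11 and 84.7 for Klf10, both TGF-beta inducible repressors. Klf4, known for its roles in monocyte and goblet cell differentiation, and Klf9, a gene induced by glucocorticoids and by the circadian clock, were far lower at medians of 17.2 and 10.1 normalized counts per kb, with overlapping ranges. Klf16, a repressor that binds Sin3, came last at 5.44 normalized counts per kb and had raw counts of 5 to 42 over the 18 libraries. With a mean value of 5.97, it did not reach the minimum of 6.02 set for testing, so 9 of the 10 members were tested.

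**Figure D1:**
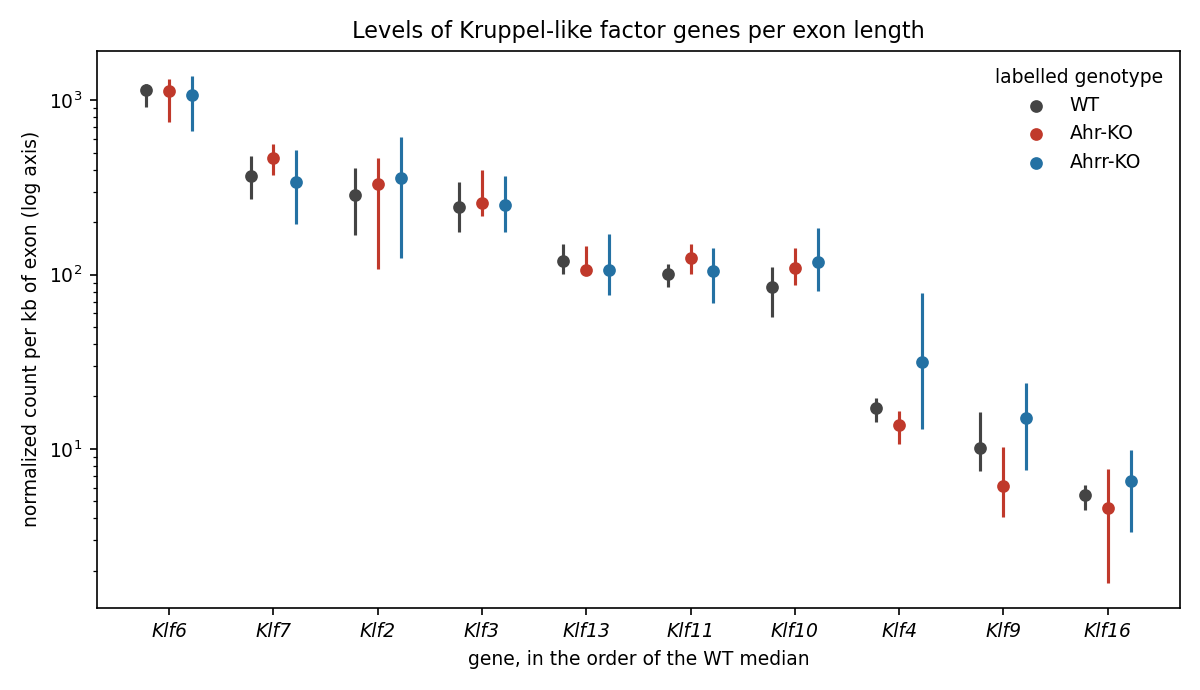
Normalized counts per kb of exon (log axis) for the 10 Kruppel-like factor genes, ordered by the WT median. Points are medians and vertical lines run from the lowest to the highest of 6 libraries per labelled genotype; Klf6 lies highest and Klf16 lowest in WT, with WT medians of 1150 and 5.44.

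The promoters of Klf4 and Klf9 are shown because these were the members that passed the test between Ahr-KO and Ahrr-KO, and because AHR is known to bind the core GCGTG. They were read from RefSeq on the GRCm38.p6 build and hold the 250 bases before the annotated start, on the strand of the gene. Klf4 lies on the minus strand (promoter chr4:55532476-55532725), and Klf9 on the plus strand (promoter chr19:23140976-23141225). Capitals mark GCGTG or its reverse complement CACGC.
Klf4: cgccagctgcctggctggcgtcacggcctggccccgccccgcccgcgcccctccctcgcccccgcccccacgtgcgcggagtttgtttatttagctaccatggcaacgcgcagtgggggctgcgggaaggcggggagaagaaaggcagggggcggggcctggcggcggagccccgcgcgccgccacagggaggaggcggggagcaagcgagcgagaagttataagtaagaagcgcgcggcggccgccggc
Klf9: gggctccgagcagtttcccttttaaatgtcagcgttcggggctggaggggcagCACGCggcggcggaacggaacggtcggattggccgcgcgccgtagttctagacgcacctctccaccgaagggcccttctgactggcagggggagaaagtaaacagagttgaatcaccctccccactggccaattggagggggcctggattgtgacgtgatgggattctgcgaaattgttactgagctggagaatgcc
A promoter was found for 8 of the 10 members, all but Klf10 and Klf16. That of Klf7 lies before a start inside the annotated gene and not at its outer end, so its matches hold for that start. On either strand GCGTG was present in 5 of these 8, with 3 matches in Klf11, 1 match each in Klf3, Klf6, Klf9 and Klf13, and 0 in Klf2, Klf4 and Klf7. Over all 32851 promoters of this length the share with a match was 28.2%. The CACCC box, to which the family itself binds, was matched in 5 of the 8 (52% of all promoters), and 1 of the GCGTG matches in Klf3 overlapped such a box. The GC box GGGCGG was matched in 7 of the 8 (32.7% of all promoters), with 4 matches in Klf4 and 0 in Klf9. A match describes these letters only, and no binding was measured.

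The plot of member values by sample shows how the family varied within and between genotypes. Klf2 had the widest spread over the 18 libraries, from 8.02 to 10.24 (SD 0.67), followed by Klf4, from 6.41 to 8.23 (SD 0.49). Klf11 and Klf13 were the narrowest of the tested members, with SDs of 0.25 and 0.27. The ranges of each of the 10 members overlapped between all pairs of genotypes. How often ranges overlap among all genes was not counted, so this is not a trait of the family.

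**Figure D2:**
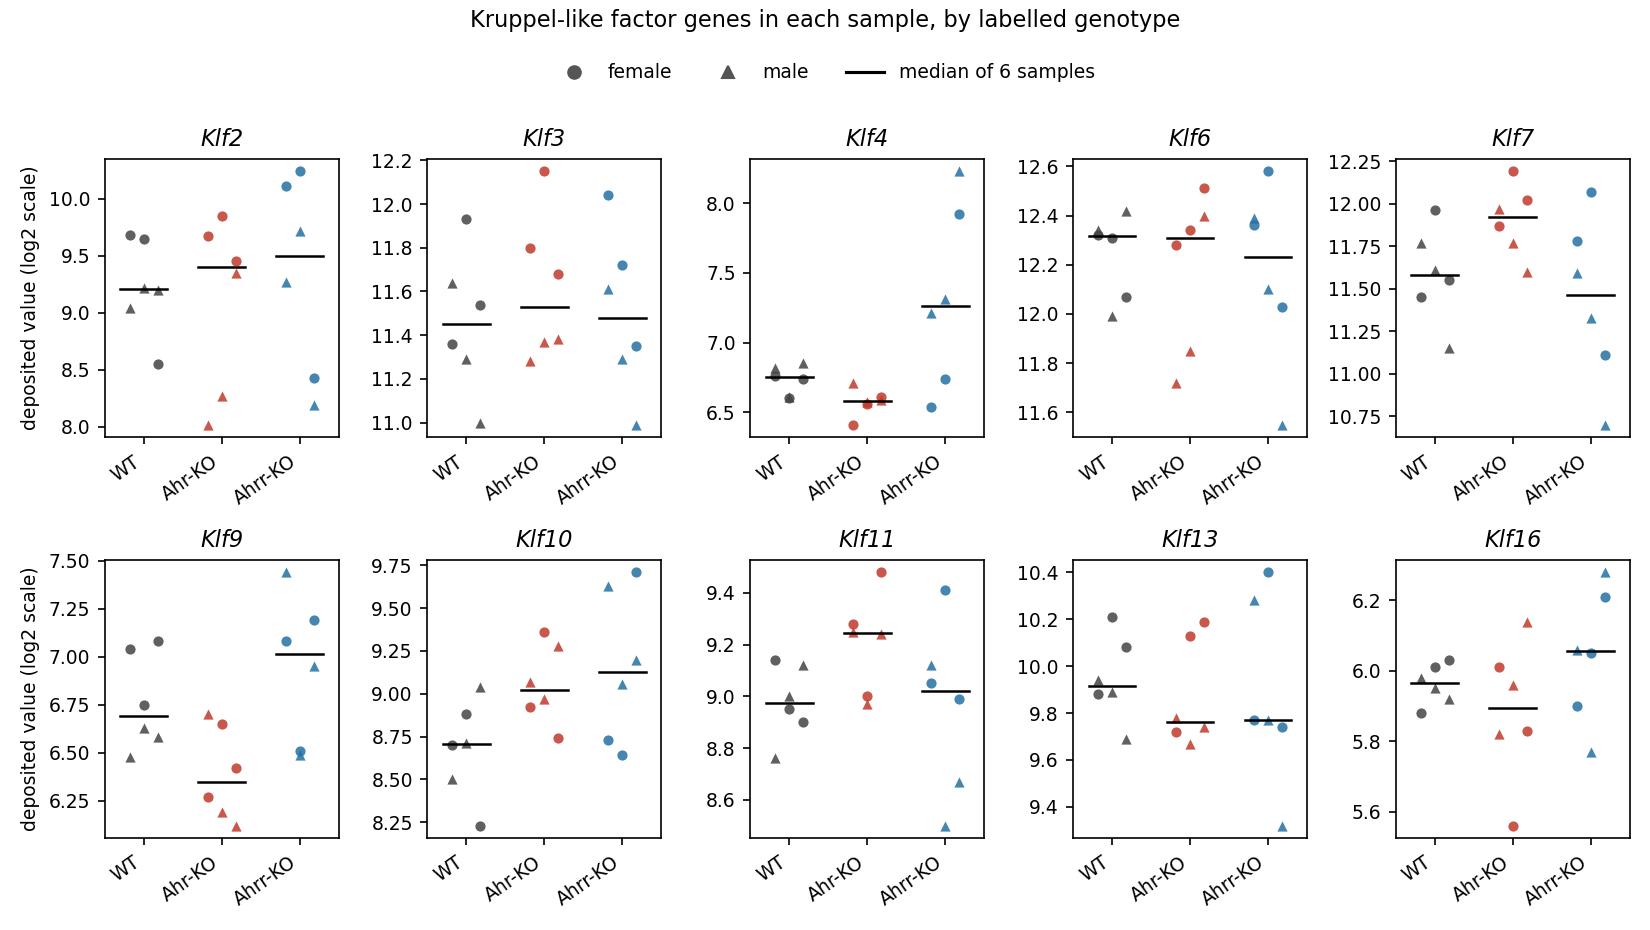
Deposited log2 values of the 10 members in each of the 18 libraries by labelled genotype, with circles for female and triangles for male samples and a line at the median of 6. Ranges overlap between genotypes for every member (overlap was not counted over all genes), and Klf4 reaches its highest values, 7.92 and 8.23, in the libraries labelled Ahrr-KO F3 and M3.

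The members were next compared between Ahr-KO and WT, where genotype and housing cannot be told apart. No member passed the test, 0 of 9 by limma (Benjamini-Hochberg adjusted p below 0.05 over all genes tested), where 8.84% of all tested genes did. At an unadjusted p below 0.05 there were 3 of 9 members, beside 2638 of all 11346 tested genes, and limma voom on the recovered counts also called 0. These 3 were Klf7 and Klf10, with higher values in the libraries labelled Ahr-KO, and Klf9, with lower values.

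Klf7 had a lowest, median and highest value of 11.15, 11.58 and 11.96 in WT and of 11.60, 11.92 and 12.19 in Ahr-KO. All 6 of the libraries labelled Ahr-KO lay above the WT median, and 3 of them lay above every WT library. The difference was 0.32 (SE 0.13, 95% interval 0.04 to 0.60; limma adjusted p = 0.144). Klf10, which mediates part of the growth-inhibitory response to TGF-beta, stood at 8.23, 8.70 and 9.04 in WT and at 8.74, 9.02 and 9.36 in Ahr-KO. Again all 6 libraries labelled Ahr-KO exceeded the WT median, and the difference was 0.38 (SE 0.14, interval 0.08 to 0.68; limma adjusted p = 0.106). With the replicate number as a block, Klf10 passed (0.38, limma adjusted p = 0.0343). Its close relative Klf11 had a difference of 0.23 (interval 0.00 to 0.46; limma adjusted p = 0.226), with 5 of 6 libraries above the WT median.

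Klf9 went the other way, from 6.48, 6.69 and 7.08 in WT to 6.12, 6.35 and 6.70 in Ahr-KO. In the libraries labelled Ahr-KO, 5 of 6 lay below the WT median and 4 below every WT library, a difference of -0.37 (SE 0.13, interval -0.65 to -0.09; limma adjusted p = 0.1). Without the library labelled Ahr-KO M1, the highest of its group for Klf9, the difference was -0.47 and passed (limma adjusted p = 0.0328). Over all alternatives the adjusted p of Klf9 in this comparison ranged from 0.0328 to 0.243. For Klf4 the 6 libraries labelled Ahr-KO all lay below the WT median, at 6.41, 6.58 and 6.71 against 6.60, 6.75 and 6.85, but the difference of -0.15 (interval -0.38 to 0.07) did not pass (limma adjusted p = 0.401).

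The remaining members did not pass either. Klf2 differed by -0.12 (interval -0.65 to 0.41), Klf3 by 0.15 (-0.14 to 0.44), Klf6 by -0.06 (-0.35 to 0.23) and Klf13 by -0.08 (-0.30 to 0.14). For Klf2 the interval left room for differences in both directions, and its libraries labelled Ahr-KO spread from 8.02 to 9.85. Over the 9 tested members, 4 differences were above 0 and 5 below, with a median of -0.06, against a median of 0.00 over all 11346 tested genes.

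The comparison of Ahrr-KO with WT shares its WT libraries with the previous one. No member passed it, 0 of 9 by limma, where 0.0779% of all tested genes did (9 of 11546), and limma voom called 0 members as well. Klf4 and Klf10, the 2 of 9 members at an unadjusted p below 0.05 (853 of 11546 among all tested genes), both had higher values in the libraries labelled Ahrr-KO.

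Klf4 stood at 6.54, 7.26 and 8.23 in Ahrr-KO against 6.60, 6.75 and 6.85 in WT. The libraries labelled Ahrr-KO were split, with F1 (6.54) below every WT library, F2 (6.74) within the WT range, and M1 (7.21), M2 (7.31), F3 (7.92) and M3 (8.23) above every WT library. The difference was 0.59 (SE 0.24, interval 0.09 to 1.10; limma adjusted p = 0.617). Klf10 had values of 8.64, 9.13 and 9.71, with 5 of 6 libraries labelled Ahrr-KO above the WT median, and a difference of 0.49 (SE 0.20, interval 0.07 to 0.90; limma adjusted p = 0.617). Differences of the other 7 tested members lay between -0.15 for Klf7 and 0.18 for Klf9. The median over the 9 was 0.04, against 0.01 over all tested genes.

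Klf4 and Klf9 were lower in the libraries labelled Ahr-KO than in those labelled Ahrr-KO, a comparison that shares its libraries with the previous ones. They were the 2 of 9 tested members that passed by limma, where 14.9% of all tested genes did, so the share among the members was near that background. In 1 more member, Klf7, the p was below 0.05 before adjustment only, which makes 3 of 9 at that level, beside 3760 of all 11474 tested genes. limma voom on the recovered counts called 0 members.

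**Figure D3:**
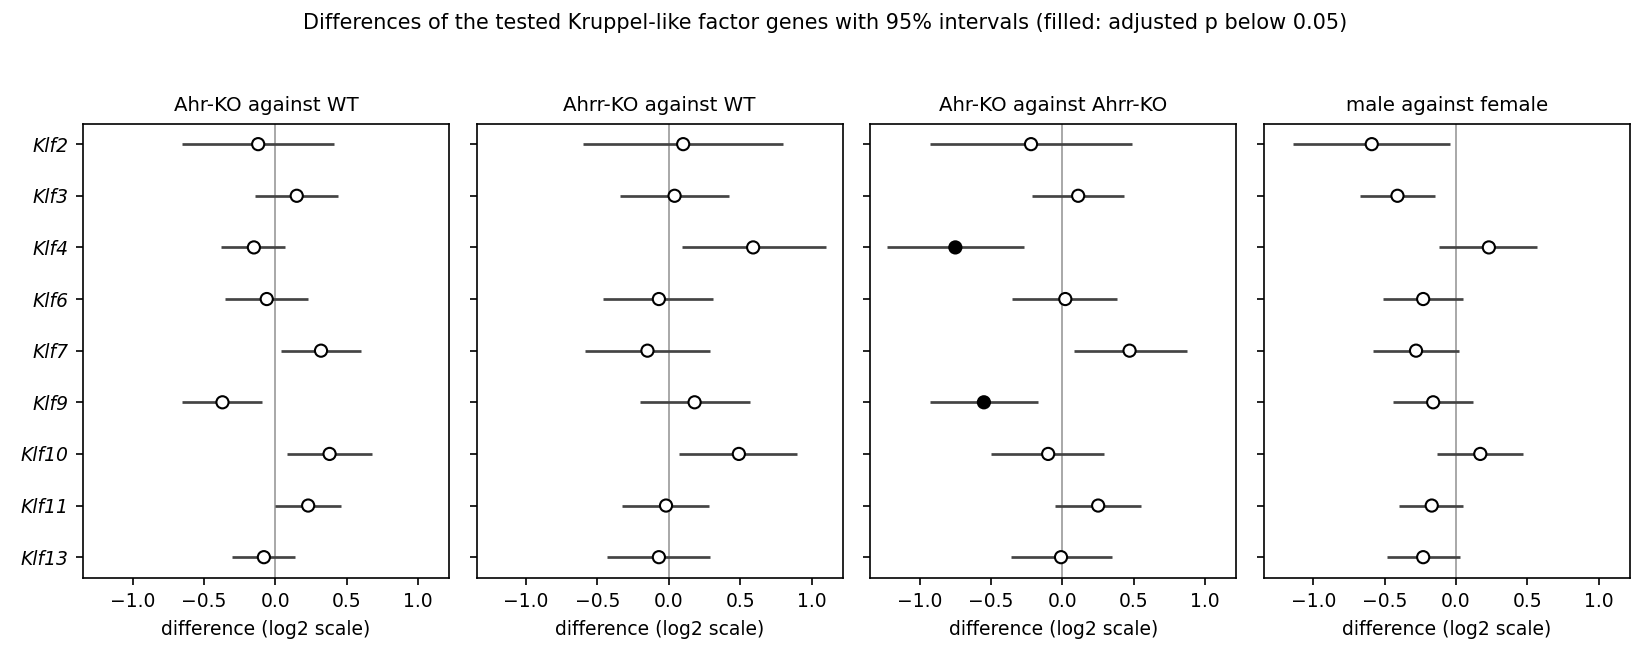
Differences of the 9 tested members on the log2 scale with 95% intervals from limma, for 3 comparisons of labelled genotypes (6 against 6 libraries) and for male against female (9 against 9). Filled points passed at an adjusted p below 0.05 over all tested genes, which holds for Klf4 (-0.75) and Klf9 (-0.55) in Ahr-KO against Ahrr-KO.

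For Klf4 the values of 6.41, 6.58 and 6.71 in Ahr-KO met values of 6.54, 7.26 and 8.23 in Ahrr-KO. The 6 libraries labelled Ahr-KO lay close together, and 5 of the 6 labelled Ahrr-KO lay above all of them, with F1 inside their range. In normalized counts the means were 41.7 ± 5.61 and 117 ± 77.5 (SD, n = 6), so most of the spread came from Ahrr-KO. The difference was -0.75 (SE 0.23, interval -1.23 to -0.27; limma adjusted p = 0.0399), and voom gave -1.33 (adjusted p = 0.0804).

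Klf9 had values of 6.12, 6.35 and 6.70 in Ahr-KO and of 6.49, 7.01 and 7.44 in Ahrr-KO. All 6 libraries labelled Ahr-KO lay below the Ahrr-KO median, and 4 of the 6 labelled Ahrr-KO lay above every Ahr-KO library. Mean normalized counts were 32.7 ± 12.3 and 70.4 ± 30.3 (SD, n = 6), with raw counts from 24 to 144. The difference was -0.55 (SE 0.18, interval -0.93 to -0.17; limma adjusted p = 0.0493).

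Both calls were close to the threshold. That of Klf4 was lost in 11 of 25 alternatives, with limma adjusted p from 0.0104 to 0.236, and that of Klf9 in 17 of 25, with adjusted p from 0.0183 to 0.449. Klf4 no longer passed without the library labelled Ahrr-KO F3 (-0.58, adjusted p = 0.0812) or M3 (-0.58, 0.0877), nor without Ahr-KO F1 (0.0743), F2 (0.0644), M1 (0.0781), M2 (0.0834) or M3 (0.09). Klf9 was lost without any one of the 6 libraries labelled Ahr-KO, with limma adjusted p of 0.1 (F1), 0.0618 (F2), 0.0634 (F3), 0.0548 (M1), 0.105 (M2) and 0.117 (M3), and without Ahrr-KO F1 (0.0621), F3 (0.105), M1 (0.0932) or M3 (0.0921).

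Klf7 had the opposite sign, with values of 11.60, 11.92 and 12.19 in Ahr-KO and of 10.70, 11.46 and 12.07 in Ahrr-KO. The 6 libraries labelled Ahr-KO lay above the Ahrr-KO median, and the difference was 0.47 (SE 0.18, interval 0.08 to 0.87; limma adjusted p = 0.0896). It passed in 2 alternatives, without the library labelled Ahrr-KO F2 (0.58, adjusted p = 0.0375) and with sample weights (0.45, 0.0491), where Klf9 did not (-0.43, 0.0827); over all alternatives the adjusted p of Klf7 ranged from 0.0375 to 0.398. Klf11 differed by 0.25 (interval -0.05 to 0.55), Klf2 by -0.22 (-0.93 to 0.49), Klf3 by 0.11 (-0.21 to 0.43) and Klf10 by -0.10 (-0.50 to 0.29). For Klf6 (0.02) and Klf13 (-0.01) the difference was near 0 and its sign changed with the scaling. The median over the 9 members was -0.01, against 0.00 over all 11474 tested genes.

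Klf4 is also transcribed in gut epithelium, and epithelial transcripts varied between these libraries along with it, although the sort gate should remove such cells. All 12 markers of enterocytes and other epithelium were detected, the sucrase gene Sis being the most abundant. Summed over the 12 markers, normalized counts in the libraries labelled Ahrr-KO were 6242 in F1, 6524 in F2, 28481 in F3, 30884 in M1, 15435 in M2 and 31764 in M3. The libraries F3, M1, M2 and M3, which had the high epithelial sums, were also the 4 with Klf4 above every WT library. Eosinophil marker sums in the libraries labelled Ahrr-KO were 57506 in F1, 58603 in F2, 32494 in F3, 50740 in M1, 45038 in M2 and 22749 in M3, so that F3 and M3, the libraries with the highest Klf4, had the lowest eosinophil sums of all 18. Between Ahr-KO and Ahrr-KO the eosinophil markers Siglecf, Il5ra, Alox15 and Prg2 were higher in the libraries labelled Ahr-KO (0.72, 0.75, 0.79 and 2.07, limma adjusted p = 0.02, 0.018, 0.0377 and 1.81e-05). In the libraries labelled Ahr-KO the epithelial sums were 4698, 3942 and 9241 in F1 to F3 and 8886, 10061 and 6680 in M1 to M3, and in WT they were 20427, 5150 and 8363 in F1 to F3 and 8957, 7967 and 13026 in M1 to M3. Klf4 was at 6.76 in WT F1, the WT library with the highest epithelial sum.

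**Figure D4:**
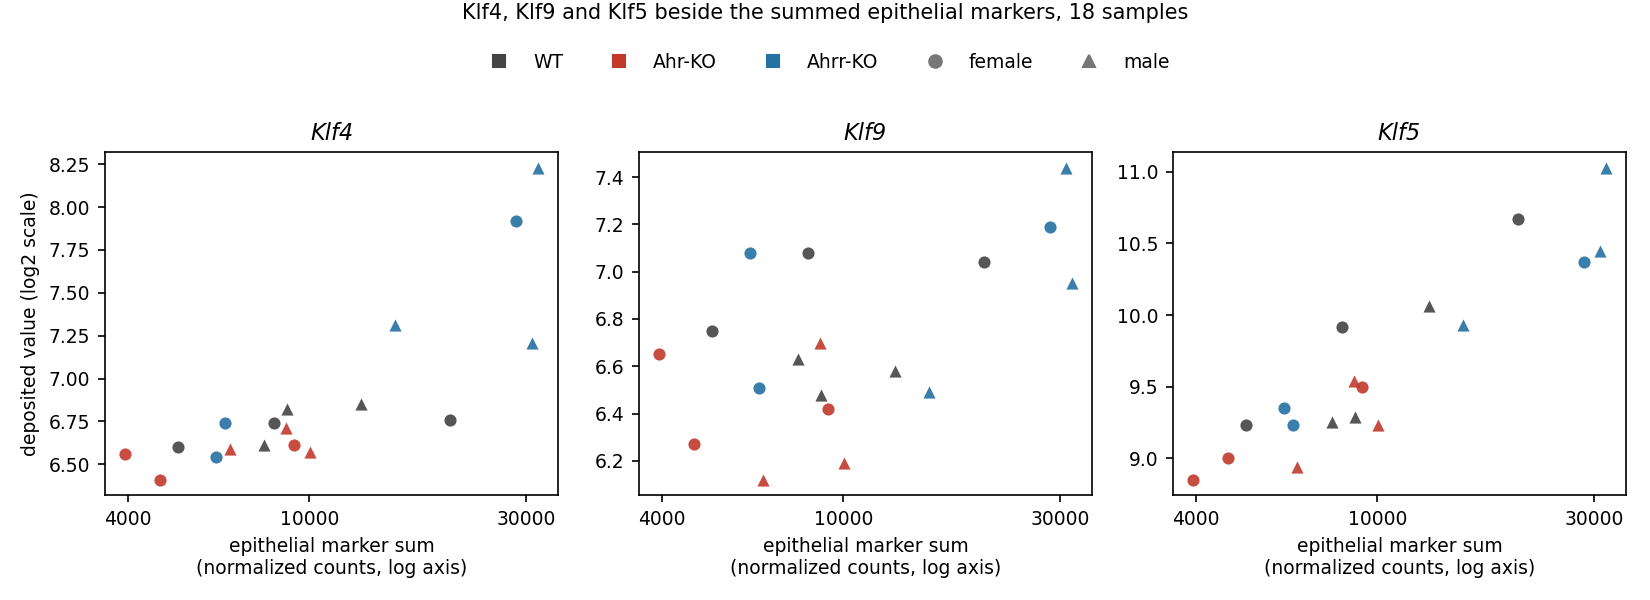
Deposited log2 values of Klf4, Klf9 and Klf5 against the sum of 12 epithelial markers (normalized counts, log axis) in 18 libraries, coloured by labelled genotype and shaped by sex. The libraries labelled Ahrr-KO F3, M1 and M3, with sums of 28481, 30884 and 31764, lie at the right of each panel, with Klf4 at 7.92, 7.21 and 8.23.

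Between Ahr-KO and Ahrr-KO, 6 of the 12 epithelial markers passed the limma test, and all 6 (Sis, Krt19, Epcam, Krt8, Cdh1 and Krt18) were lower in the libraries labelled Ahr-KO. The mean sum was 7251 ± 2543 against 19888 ± 12004 (SD, n = 6; exact two-sided permutation p = 0.0455, adjusted p = 0.117 over 36 tests of marker sums). Goblet cell markers, 7 of 7 detected and led by Muc2, summed to a median of 5340 in Ahr-KO (4674 to 6459) and of 20248 in Ahrr-KO (10006, 3840 and 28986 in F1 to F3, and 19511, 20985 and 42239 in M1 to M3), a difference that did not pass (exact p = 0.0152, adjusted p = 0.0545), although all 6 tested genes were lower and 5 of them passed limma. Paneth cell markers, 6 of 6 detected and led by Lyz1, had a median sum of 6588 in Ahr-KO (1403 to 8428) against 17655 in Ahrr-KO (11377, 8312 and 20325 in F1 to F3, and 69850, 14984 and 33421 in M1 to M3), and all 6 fell. Fewer cells of a type, less RNA per cell and less expression by the eosinophils themselves cannot be told apart in such sums. The paper attributes Tff3, a gene of the goblet list, to the eosinophils.

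The genes whose values were most like those of Klf4 over the 18 libraries were the adhesion gene Nectin2 (Pearson r of 0.93) and the collagen genes Col1a2 and Col3a1 (0.92 each), taken from 11468 tested genes. Of the 7 fibroblast markers, all were detected and Col3a1 was the most abundant. Their sums in the libraries labelled Ahrr-KO were 51.8 in F1, 149 in F2, 940 in F3, 505 in M1, 171 in M2 and 1663 in M3, against 65.3 to 129 in Ahr-KO and 61.3 to 219 in WT. Between Ahr-KO and Ahrr-KO all 5 tested fibroblast genes were lower, and Col1a2 passed (-1.09, limma adjusted p = 0.0379). Klf4 was highest in F3 and M3, the 2 libraries with the highest fibroblast sums. For Klf9 the most similar genes were Sfmbt1, which encodes a chromatin protein (0.85), Hadhb, which encodes an enzyme of fatty acid oxidation (0.84), and Auts2 (0.82).

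When the 3 libraries with the highest epithelial sum (Ahrr-KO F3, M1 and M3) were left out, a setting chosen after seeing the data, Klf4 differed by -0.33 between Ahr-KO and Ahrr-KO (limma adjusted p = 0.236) and Klf9 by -0.27 (adjusted p = 0.449). Neither call was then kept, in a smaller fit where 626 of all 11320 tested genes passed, against 1708 of 11474 in the full one. Left out were the highest Ahrr-KO values of Klf4 (7.92 in F3, 8.23 in M3) and Klf9 (7.19 in F3, 7.44 in M1). Leaving those out lowers the differences by itself, so this setting cannot decide where they came from. The part of epithelial, goblet, Paneth or fibroblast transcripts, or of a lower eosinophil share, in the values of Klf4 and Klf9 was not tested.

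Sex was compared over all 18 libraries with genotype in the model. No member passed, 0 of 9 by limma, where 3.06% of all tested genes did (351 of 11468), and 2 of 9 members had an unadjusted p below 0.05, beside 2145 of all 11468 tested genes. Those 2 were Klf2 and Klf3, both with lower values in male samples. Klf3 ranged from 11.35 to 12.15 in females (median 11.72) and from 10.99 to 11.64 in males (median 11.29), so the sexes overlapped. Its difference, male against female, was -0.41 (SE 0.13, interval -0.67 to -0.15; limma adjusted p = 0.0769).

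The call for Klf3 depended on single libraries. It passed without WT F1 (-0.46, limma adjusted p = 0.0371), WT M1 (-0.47, 0.0302), Ahrr-KO F3 (-0.46, 0.038) or Ahrr-KO M1 (-0.46, 0.0476). Klf2, which sustains expression of the sphingosine receptor gene S1pr1 in lymphocytes, ranged from 8.43 to 10.24 in females (median 9.67) and from 8.02 to 9.72 in males (median 9.20), a difference of -0.59 (SE 0.26, interval -1.14 to -0.04; limma adjusted p = 0.232). Among the libraries labelled Ahr-KO alone Klf2 passed, with means of 9.66 in females and 8.55 in males (limma adjusted p = 0.0373). There 457 of all 11265 tested genes passed, against 5 of 11409 in WT alone and 5 of 11669 in Ahrr-KO alone. Of the 9 tested members, 7 had lower values in males, and the median difference was -0.23, against 0.01 over all tested genes. Genes on the marker lists of other cells differed by sex as well. All 3 tested genes of the mast cell list were lower in males, Hdc by -1.56, Kit by -0.94 and Gata2 by -0.83 (limma adjusted p = 0.0248, 0.0245 and 0.00798). The rest of that list was too scarce to be tested, with Tpsb2 and Fcer1a at counts of at most 8 and 4. Whether these 3 transcripts came from mast cells was therefore not shown. Of 11 tested macrophage and dendritic cell genes, 7 had higher and 4 lower values in males. The 2 that passed were the MHC class II genes H2-Aa and H2-Ab1, higher by 1.48 and 1.34 (limma adjusted p = 0.0285 and 0.0426). Of 7 tested neutrophil genes, 1 passed, Ltf with -0.84 (limma adjusted p = 0.021). All 12 epithelial markers had higher values in males, by a median of 0.51, and 0 passed.

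The 2 tests of whether a genotype difference depended on sex called 0 members by limma, where 0% of all tested genes passed in each (0 of 11346 for Ahr-KO and 0 of 11546 for Ahrr-KO, both against WT). At an unadjusted p below 0.05 there were 533 and 544 genes, and voom also called 0 genes, with 583 and 373. Klf2 was the 1 member at an unadjusted p below 0.05, for Ahr-KO against WT, with an interaction of -0.97 (interval -1.93 to -0.02, limma adjusted p = 0.954). In the libraries labelled Ahr-KO, Klf2 stood at 9.45, 9.67 and 9.85 in females and at 8.02, 8.27 and 9.35 in males. In WT it stood at 8.55, 9.65 and 9.68 in females and at 9.04, 9.20 and 9.22 in males, where the male values fell within the female range.

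No pair of members was called as varying together within groups. Deviations from the genotype-by-sex means over the 18 libraries were correlated for all 36 pairs of the 9 tested members. None of the 36 passed after Benjamini-Hochberg adjustment, and 6 had an unadjusted p below 0.05 (permutation test, 100000 resamples, two-sided). Pairs of genes outside the family were not tested in this way. Klf7 and Klf13 had a Pearson r of 0.82 (permutation p = 0.00426, adjusted p = 0.0767) and a Spearman rho of 0.79 (p = 0.0022, adjusted p = 0.0792), and r was 0.75 without the 2 libraries farthest from the median. Klf3 and Klf7 had an r of 0.80 (permutation p = 0.00421, adjusted p = 0.0767) and a rho of 0.76 (p = 0.00703, adjusted p = 0.127), with an r of 0.82 without those 2. Klf2 and Klf6 had an r of 0.76 (permutation p = 0.0106, adjusted p = 0.127) and a rho of 0.70 (p = 0.018, adjusted p = 0.162), with an r of 0.65 without 2 libraries.

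The lowest correlation was that of Klf2 with Klf4, an r of -0.79 (permutation p = 0.0328, adjusted p = 0.236) and a rho of -0.68 (p = 0.0305, adjusted p = 0.219), falling in size to -0.55 without 2 libraries. Klf4 also had an r of -0.76 with Klf7 (permutation p = 0.0487, adjusted p = 0.292; rho -0.62, p = 0.0514, adjusted p = 0.309) and -0.49 without 2 libraries, and one of -0.66 with Klf3 (permutation p = 0.0195, adjusted p = 0.175; rho -0.69, p = 0.0142, adjusted p = 0.162; -0.67 without 2 libraries). The libraries labelled Ahrr-KO F3 and M3, which had the highest fibroblast and the lowest eosinophil sums of all 18, had the highest Klf4 (7.92 and 8.23). Klf2 stood there at 8.43 and 8.19 and Klf7 at 11.11 and 10.70, the 2 lowest values of Ahrr-KO for each gene. Their epithelial sums (28481 and 31764) were high as well, as was that of Ahrr-KO M1 (30884). Removing the genotype means alone, and leaving the sex difference in, gave 8 pairs at an adjusted p below 0.05.

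**Figure D5:**
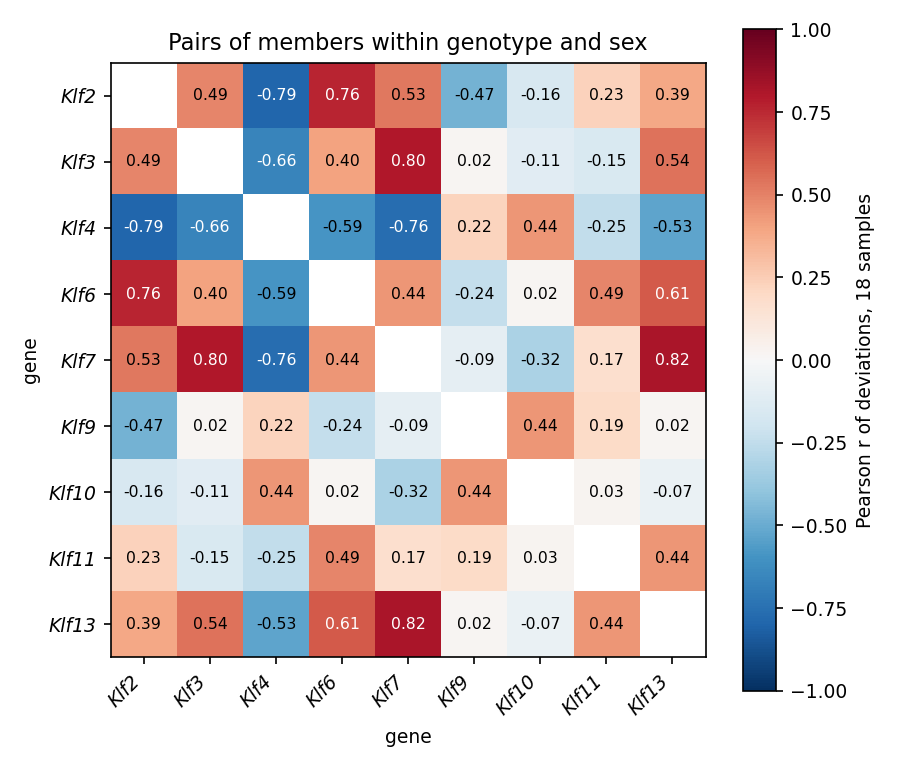
Pearson r of deviations from genotype-by-sex means over 18 libraries for the 36 pairs of tested members, from -1 (blue) to 1 (red). The highest is 0.82 for Klf7 with Klf13 and the lowest -0.79 for Klf2 with Klf4.

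Klf6 followed the immediate early genes, a set of 19 transcripts such as Fos, Jun and Egr1 that are induced rapidly by stimulation and by cell isolation. Its deviations correlated with the mean of the set at an r of 0.73 (permutation p = 0.0025, adjusted p = 0.0225 over the 9 tested members) and a rho of 0.81 (p = 7.20e-04, adjusted p = 0.00648), and r was 0.67 without the 2 farthest libraries. It was the 1 member of 9 that passed, and the part of cell handling was not tested. Genes outside the family were not correlated with this mean, so whether Klf6 stands out among all genes is not known. Klf13 had an r of 0.67 (permutation p = 0.0274, adjusted p = 0.123; rho 0.63, p = 0.0359, adjusted p = 0.162; 0.60 without 2 libraries), and Klf4 had one of -0.23 (permutation p = 0.739, adjusted p = 0.895; rho -0.11, p = 0.744, adjusted p = 0.837; -0.10 without 2 libraries).

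In the rest of the Kruppel-like and Sp family, 15 of 16 listed genes were in the table and 6 were expressed enough to be tested. Klf5, which drives proliferation of intestinal crypt cells, stood at 9.23, 9.61 and 10.67 in WT, at 8.85, 9.12 and 9.54 in Ahr-KO and at 9.23, 10.15 and 11.03 in Ahrr-KO. It was lower in Ahr-KO than in Ahrr-KO by -0.88 (SE 0.24, interval -1.39 to -0.37; limma adjusted p = 0.0253), with overlapping ranges. The 3 libraries labelled Ahrr-KO with the highest Klf5, at 10.37 (F3), 10.45 (M1) and 11.03 (M3), were those with the highest epithelial sums, and without them the difference was -0.37 (adjusted p = 0.265). Leaving out the highest Klf5 values lowers the difference by itself, and the part of epithelial transcripts in Klf5 was not tested.

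The call of Klf5 was lost in 9 of 26 alternatives (adjusted p from 0.01 to 0.265), namely without those 3 libraries, without the sex covariate (limma adjusted p = 0.0527), without Ahr-KO F1 (0.0512), F2 (0.0557), M1 (0.0508), M2 (0.0589) or M3 (0.0684) and without Ahrr-KO F3 (0.0539) or M3 (0.057). Sp3, a relative that binds GC boxes, was lower in Ahr-KO than in WT by -0.30 (SE 0.09, limma adjusted p = 0.0489), and that call was lost in 19 of 25 alternatives. Klf1, Klf12, Klf14, Klf15 and Klf17 had counts of at most 33 in any library, of at most 5 for the erythroid factor Klf1, and were not tested.

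Partners and regulators of the members were taken from lists. Of the 12 cofactors, such as the corepressors Ctbp1 and Sin3a and the acetyltransferase Ep300, 0 passed limma in each of the 3 genotype comparisons and for sex, with median differences between -0.08 and -0.01. Of the 11 genes of upstream signalling, 2 rose in Ahr-KO against WT (8.84% of all tested genes passed), the TGF-beta signal transducer Smad3 by 0.62 (limma adjusted p = 0.00132) and the receptor gene Tgfbr2 by 0.51 (adjusted p = 0.00631), while the TGF-beta inducible members Klf10 and Klf11 did not pass. Against Ahrr-KO, where 14.9% of all tested genes passed, Ahr-KO gave 0.77 for Smad3 (adjusted p = 0.00102) and 0.63 for Tgfbr2 (adjusted p = 0.0227). In male against female samples (3.06% of all tested genes), Smad3 and Mef2d, which encodes a factor upstream of Klf2, were lower by -0.41 and -0.47 (limma adjusted p = 0.0289 and 0.0253). Of these calls, those for Smad3 between genotypes were kept in all alternatives, Tgfbr2 was lost in 1 of 25 and in 6 of 26, and for sex Smad3 was lost in 13 of 27 and Mef2d in 12 of 27.

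Of the reported target genes, 7 of 10 were tested. Lgals3, which encodes galectin-3, fell by 1.14 in Ahr-KO against WT and by 1.15 against Ahrr-KO (limma adjusted p of 3.26e-04 and 0.00316). Cdkn1a, the cell cycle inhibitor that Klf4 and Klf6 can activate, and Ccnd1, a cyclin gene, were lower in Ahr-KO than in Ahrr-KO by -0.76 and -0.84 (adjusted p = 0.0192 and 0.021), in a comparison where all 12 epithelial markers were lower as well, by a median of -1.01, and the part of epithelial transcripts in these genes was not tested. The 3 targets called there were 3 of 7, where 14.9% of all tested genes passed, and the 1 of 7 for Ahr-KO against WT stood beside 8.84%. In males, where 3.06% of all tested genes passed, Cdkn1a differed by -0.68 and Smad7, an inhibitor of TGF-beta signalling, by -0.43 (adjusted p = 0.0196 and 0.0361). None of the 7 passed between Ahrr-KO and WT by limma. Their median difference was -0.24 in Ahr-KO against WT, 0.27 in Ahrr-KO against WT and -0.52 in Ahr-KO against Ahrr-KO, where the members had -0.06, 0.04 and -0.01. The calls of Lgals3 were kept in all alternatives, those of Ccnd1 and Cdkn1a between genotypes were lost in 3 of 25 and 3 of 26, and for sex Cdkn1a was lost in 4 of 27 and Smad7 in 17 of 26.

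Among the 7 glucocorticoid-responsive genes, which belong to the same hormone response as Klf9, Sgk1 rose by 0.67 and Ddit4 fell by 0.56 in Ahr-KO against WT (limma adjusted p = 0.038 and 0.0355). These 2 of 7 stood beside 8.84% of all tested genes. None passed for Ahrr-KO against WT (0.0779% of all tested genes) or for Ahr-KO against Ahrr-KO (14.9%). Both Per1 (-0.90) and Ddit4 (-0.75) were lower in males (limma adjusted p = 0.015 and 0.0451), where 3.06% of all tested genes passed. The median of the 7 was -0.49 in males. Of 11 tested circadian genes, 2 passed between Ahr-KO and Ahrr-KO, where 14.9% of all tested genes did, Clock with -0.52 and Tef with 0.77 (adjusted p = 0.0355 and 0.0138), 0 passed in each knockout against WT, and 2 passed for sex, Per1 and Bhlhe40 (-0.64, adjusted p = 0.0364). Many of these calls depended on the processing: Sgk1 was lost in 11 of 24 alternatives, Ddit4 in 14 of 24 (and in 17 of 26 for sex), Clock in 11 of 26, Tef in 1 of 26, Per1 in 2 of 27 and Bhlhe40 in 15 of 27. The times of day at which the samples were taken were not given in the sources used here.

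Of the 19 immediate early genes, Atf3, which encodes a stress-induced factor, fell by 1.42 in Ahr-KO against WT and by 1.88 against Ahrr-KO (limma adjusted p of 3.40e-06 and 1.24e-06). Nr4a1, an orphan nuclear receptor gene, rose by 0.92 and 0.70 in the same comparisons (adjusted p = 0.0269 and 0.0496), and Socs3 fell by 0.65 against Ahrr-KO (adjusted p = 0.00811). In males 6 of the 19 were lower and passed, where 351 of all 11468 tested genes passed (3.06%), 282 of them lower, namely Hspa1b (-1.87), Nr4a1 (-0.91), Nr4a2 (-0.82), Jun (-0.77), Atf3 (-0.75) and Ier3 (-0.59), with limma adjusted p from 0.00294 (Atf3) to 0.0491 (Hspa1b). The median of the 19 was -0.38 in males, -0.16 in Ahr-KO against WT, 0.23 in Ahrr-KO against WT and -0.32 in Ahr-KO against Ahrr-KO. For sex Hspa1b was lost in 18 of 26 alternatives, Nr4a2 in 18 of 27, Nr4a1 in 8 of 27, Atf3 in 4 of 27, Jun in 2 of 27 and Ier3 in 2 of 26. Between genotypes Atf3 and Socs3 were kept in all, and Nr4a1 was lost in 7 of 25 for Ahr-KO against WT and in 13 of 26 against Ahrr-KO. Klf6, which followed this set within groups, had a difference of -0.23 in males (interval -0.51 to 0.05) that did not pass (limma adjusted p = 0.364).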

How the data were processed

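Per the labels, 18 RNA-seq libraries were grouped by genotype and sex, and 0 sample columns were left unused. According to the submitters' notes the authors aligned reads to GRCm38 (mm10) with STAR 2.5.2, counted with RSEM 1.3.0 and used DESeq2 in R 4.0.3; the strand of counting was not given in the sources used here. The deposited values were variance-stabilized expression on a log2 scale, used as deposited. Turned back into counts, 100% came out whole (relative tolerance 0.0001), which gave depth, normalized counts and levels per kb. Total counts ranged from 3842977 to 12046933 per library.

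Each comparison used limma 3.58.1 in R 4.3.3 with a mean-variance trend and sex (or genotype) as covariate, over genes whose mean was at least 1 above the lowest value of 5.02, with Benjamini-Hochberg adjusted p below 0.05. Pairs of members were tested by permutation within genotype-by-sex groups (100000 resamples), and sums of 12 marker lists by exact permutation (36 tests, adjusted together). The tests were tested on simulated data. Members, and the 9 gene lists (members, other Kruppel-like and Sp genes, cofactors, upstream signalling, reported targets, glucocorticoid-responsive, circadian, immediate early and AHR pathway genes), were chosen with earlier results of these data known. Genes named were the members, Ahr and Ahrr, the called genes of each other list (all where at most 6 were called, otherwise the 4 with the largest difference), the most abundant gene of a marker list, and the 3 genes most correlated with a called member. Scarce eosinophil markers, untested relatives of the members and the list examples were named after their values were seen. Promoters were read from RefSeq.

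Alternatives were no minimum mean or one of 3, median centring, quantile normalization, log2(count + 1), log2(count + 8), limma voom, no trend, a robust trend, sample weights, no covariate, the replicate number as block, all 18 libraries in the fit, single genotypes for sex, and leaving out each library. Tables were made in Python 3.11.15 (pandas 2.3.3, numpy 2.4.6), exact tests and adjustment used scipy 1.17.1, and plots were drawn with matplotlib 3.10.9.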

Additional observations from a re-analysis of the deposited data

Results flagged for a closer look

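Among 72 groups of 6 libraries examined, 6 held a library far from the other 5, and chance alone sets apart about 1 in 20 groups. None of them concerned a Kruppel-like factor, and all were sums of normalized counts over markers of other cells. The pancreatic acinar sum was 514 in Ahr-KO M1 (nearest library 67.8) and 2029 in Ahrr-KO M1 (nearest 187). The fibroblast sum was 219 in WT F3 (nearest 114). The sum for T cells and innate lymphocytes was 163 in WT F3 (nearest 67.2) and 10.5 in Ahrr-KO F1 (nearest 80.4). The mast cell sum was 8821 in Ahrr-KO F1 (nearest 3970).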

How the results depend on the processing

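Of 928 differences of members under an alternative, 852 kept their direction and their side of the threshold, 28 no longer passed, 9 newly passed and 39 changed sign. The cause was not tested, except where fewer genes or libraries entered the fit. No member passed between Ahrr-KO and WT under any alternative.

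For Ahr-KO against Ahrr-KO, the number of members called, 2, became 0 without a minimum mean, 0 with a minimum of 3 (which removes Klf4 and Klf9 from testing), 1 with median centring and 1 with quantile normalization (Klf4 in both), 0 with limma voom, 0 without the sex covariate and 0 without the 3 libraries of highest epithelial sum, an alternative chosen after seeing the data, as was voom for the interaction. With sample weights the number stayed at 2, but the members were Klf4 and Klf7 (0.45) instead of Klf4 and Klf9. Leaving out single libraries gave 0 to 3. For male against female, the Ahr-KO libraries alone gave 1 member (Klf2, -1.11), where 457 of all 11265 tested genes passed. Leaving out single libraries gave 0 to 1 for sex. With genotype means only, 8 pairs of members passed instead of 0.

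With the replicate number as a block, 1 member passed for Ahr-KO against WT (Klf10, 0.38, limma adjusted p = 0.0343) instead of 0, and leaving out single libraries gave 0 to 1. Whether libraries of the same number share more than that number was not stated in the sources used here. The correlation of their deviations was above 0.1 in 1 of 6 pairs for Ahr-KO and WT (-0.27 to 0.47), in 3 of 6 for Ahrr-KO and WT (-0.59 to 0.33) and in 2 of 6 for Ahr-KO and Ahrr-KO (-0.34 to 0.33).

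Signs changed for small differences. For Ahrr-KO against WT, Klf3 was 0.00 with median centring and -0.05 with sample weights, and without the 3 libraries Klf6 was 0.09, Klf7 0.10 and Klf9 -0.13. For Ahr-KO against Ahrr-KO, Klf6 was -0.04 with quantile normalization, -0.01 with voom, -0.07 with sample weights and -0.10 without the 3 libraries, Klf10 was 0.22 without them, and Klf13 was 0.05 with median centring. For sex, Klf6 was 0.02 in WT alone and Klf9 0.03 in Ahrr-KO alone. Leaving out single libraries gave, for Ahr-KO against WT, -0.34 to 0.05 for Klf2 and -0.13 to 0.02 for Klf6. For Ahrr-KO against WT it gave -0.09 to 0.34 for Klf2, -0.04 to 0.12 for Klf3, -0.15 to 0.05 for Klf6, -0.10 to 0.06 for Klf11 and -0.18 to 0.03 for Klf13. For Ahr-KO against Ahrr-KO it gave -0.08 to 0.10 for Klf6, -0.20 to 0.04 for Klf10 and -0.11 to 0.11 for Klf13. The comparisons rest on 6 libraries per genotype, or on 3 within a sex. WT had the lowest median depth, and Klf16, with raw counts of 5 to 42, was not tested.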

Other observations

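Sums of normalized counts over markers of other cells were compared by exact permutation tests, adjusted over 36 tests, with 0.00216 the smallest p possible for 6 against 6 libraries. The eosinophil sum was higher in Ahr-KO (mean 62185 ± 5684, SD, n = 6) than in WT (50482 ± 7312, exact p = 0.00433, adjusted p = 0.026) and than in Ahrr-KO (44521 ± 14314, exact p = 0.0108, adjusted p = 0.0487). The neutrophil sum, led by Retnlg, was 83328 ± 22370 in Ahr-KO, 35956 ± 9025 in WT and 35755 ± 7547 in Ahrr-KO (exact p = 0.00216, adjusted p = 0.0195, for Ahr-KO against either). This sum was nearly all Retnlg (mean 81800 in Ahr-KO, 35100 in WT and 33100 in Ahrr-KO), and other genes of the list differed in direction. Cxcr2 was higher in Ahr-KO than in WT by 0.65, whereas Mmp8 was lower in Ahr-KO than in WT by -0.92 and than in Ahrr-KO by -1.58, as were S100a8 (-1.73) and S100a9 (-1.69) against Ahrr-KO, and both of these were higher in Ahrr-KO than in WT (2.06 and 2.10, all limma adjusted p below 0.05). The endothelial sum, led by Pecam1, was lower in Ahr-KO (2107 ± 164) than in WT (3296 ± 449, exact p = 0.00216, adjusted p = 0.0195). Pecam1 alone made up means of 2020 and 3170 of these sums, and it was the 1 gene of 3 tested that passed limma. The scarcer genes of the list went both ways. Mean normalized counts in Ahr-KO were lower than in WT for Cdh5 (14.4 against 18.9), Kdr (10.2 against 22.3) and Tek (14 against 23.8). The same held for Emcn (5.45 against 20.6) and Cldn5 (0.689 against 3.06). Vwf (34.7 against 31.7) and Tie1 (6.73 against 6.61) were not lower in Ahr-KO. The B and plasma cell sum, led by Jchain, was lower in Ahr-KO (338 ± 251) than in Ahrr-KO (3407 ± 2354, exact p = 0.0108, adjusted p = 0.0487). Jchain alone made up means of 280 and 3300 of these sums and was the 1 gene of 3 tested that passed limma, whereas Cd79b hardly differed (mean normalized count 21.2 against 24.6).

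The goblet cell sum was lower in Ahr-KO than in WT (exact p = 0.00216, adjusted p = 0.0195), and the Paneth cell sum lower in Ahr-KO than in Ahrr-KO (exact p = 0.00433, adjusted p = 0.026). The fibroblast sum did not pass for Ahr-KO against Ahrr-KO (93.6 ± 22.5 against 580 ± 623, SD, n = 6, exact p = 0.0281, adjusted p = 0.0844). The pancreatic acinar sum, with means of 120 in Ahr-KO, 1459 in WT and 397 in Ahrr-KO, did not pass (lowest exact p = 0.0173, adjusted p = 0.0567), although in Ahr-KO against WT all 7 tested genes were lower and 3 passed limma, Ctrb1 (-2.74, adjusted p = 0.0206), Cela2a (-1.55, 0.0343) and Prss2 (-1.22, 0.0445). Sums for macrophages and dendritic cells (20149, 17784 and 17902), for T cells and innate lymphocytes (41.9, 57.4 and 81.3) and for mast cells (3762, 3511 and 3559, means in Ahr-KO, WT and Ahrr-KO) did not pass either, with the lowest exact p of 0.0671 (adjusted p = 0.143), 0.0693 (0.143) and 0.9 (0.97). The mast cell sum was nearly all Hdc (mean 3390 in Ahr-KO, 3180 in WT and 3200 in Ahrr-KO). Single macrophage and dendritic cell genes passed limma in both directions. In Ahr-KO against WT they were Cd68 (-0.49), Csf1r (0.49) and Itgax (0.42), 3 of 10 tested. Against Ahrr-KO they were C1qb (-1.06), Cd68 (-0.67) and Itgax (0.61), 3 of 11 tested. Most of that sum was Itgax (mean 9330 in Ahr-KO, 7000 in WT and 6320 in Ahrr-KO) and Adgre1 (7480, 7940 and 6490). Other genes of the list were scarce, such as C1qa, C1qc and Mrc1 with WT means of 14.3, 57.1 and 50.9. Which cells these transcripts came from was not tested.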
